A study of Mus musculus with 5 samples.

Results

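Mouse embryos with a knockdown of the histone variant H3.3 were compared with untreated embryos, both made by transfer of a donor nucleus into an oocyte that had lost its own, and both collected at the 4-cell stage. The 2 libraries were chosen by their labels from the 5 of the series, and the comparison covers the 13144 of 22026 listed genes whose mean over the 5 libraries reached 1 FPKM. FPKM is a level scaled to the length of the transcript and to the mapped fragments of the library. The strain of the embryos is B6D2F1 in every group. The untreated embryos carry the treatment tag none, and the knockdown embryos the tag H3.3 knockdown. The agent that lowered H3.3 and the donor cell are not given in the sources used here. Beyond this pair, the other 3 libraries are embryos treated with luciferase and 2 groups of knockdown embryos, whose titles add H3.3 mRNA in the first and H3.2 mRNA in the second. They were used only to set values beside the pair, and the treatment tag of the library titled H3.2 mRNA names H3.3 mRNA.

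H3.3 is encoded by H3f3a and H3f3b and is placed in chromatin outside DNA replication, by HIRA at genes and by the DAXX and ATRX pair at heterochromatin. The oocyte stores H3.3, and after fertilization or nuclear transfer maternal H3.3 enters the incoming chromatin before the embryonic genome is fully active. By the 4-cell stage mouse embryos have largely replaced oocyte transcripts with their own, and the genes of the first epithelium, the trophectoderm, are beginning to be transcribed. The question behind the libraries, from the series title, is the part of H3.3 in reprogramming by the oocyte.

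Each group is 1 library, so no difference below has a replicate check and none was tested. A gene is called higher or lower where log2(FPKM + 1) in the knockdown library differed from the untreated library by at least 2, a 4-fold difference, and these words describe 2 libraries and not the conditions. A value of exactly 0 is called listed at 0. Such a gene can be called, since its log2(FPKM + 1) is 0, but no fold is given for it. The sequencing depth is unknown. In RNA from whole embryos, fewer cells of a type and less RNA per cell cannot be told apart. The untreated library stood apart from the rest of the series: across genes its Pearson's r with the other 4 libraries lay between 0.740 and 0.753 (0.751 with the knockdown), against 0.799 to 0.835 for the pairs among those 4, and genes are not independent replicates. For this reason the luciferase value stands beside many of the results. The source names of the series use both NT and SCNT for nuclear transfer, and whether these mark separate experiments is not given. The differences of the knockdown and of the luciferase library from the untreated one share the untreated library.

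Both H3.3 genes were lower in the library labelled as knockdown, and their values chose nothing in the comparison. H3f3b stood at 4484 FPKM in untreated and 535 FPKM in the knockdown library, and H3f3a at 783 and 128 FPKM. Together they reached 12.6% of the untreated level. They reached 109% in the luciferase library, with H3f3a at 3503 FPKM, over 4-fold above untreated, and H3f3b at 2230.4 FPKM. The libraries labelled H3.3 mRNA and H3.2 mRNA reached 8.86% and 7.98%, so the library labelled H3.3 mRNA held less of these 2 transcripts than the knockdown library, and does not show the added mRNA in these values. It is named by its label only. Only 13 genes with a pair mean of at least 1000 FPKM were at least 4-fold lower, and H3f3b (log2 difference -3.06) was among them, next to Zbed3 (-3.51) and Tagln2 (-3.42).

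Past 4-fold, 2211 genes (16.8%) were higher and 2055 (15.6%) lower in the knockdown library. The untreated library listed 1212 of the higher genes at 0, and the knockdown library 918 of the lower genes. Over the 9048 genes above 0 in both libraries, 999 (11%) were higher and 1137 (12.6%) lower. Their median difference was -0.20 on the log2 scale, with quartiles of -1.23 and 0.87, and the list medians below are to be read beside that value and the list counts beside 16.8% and 15.6%. For scale, 18 widely expressed reference genes had none higher and 3 lower (16.7%), with a median of -0.57, which was -0.22 with upper-quartile scaling. By the same measure 3090 genes (23.5%) were higher and 1759 (13.4%) lower in luciferase embryos than in untreated embryos. The luciferase counts include genes under 1 FPKM over the untreated and knockdown libraries, which could not enter the knockdown counts. The luciferase library had 12300 genes above 0, against 10443 in the untreated and 10496 in the knockdown library.

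**Figure D1:**
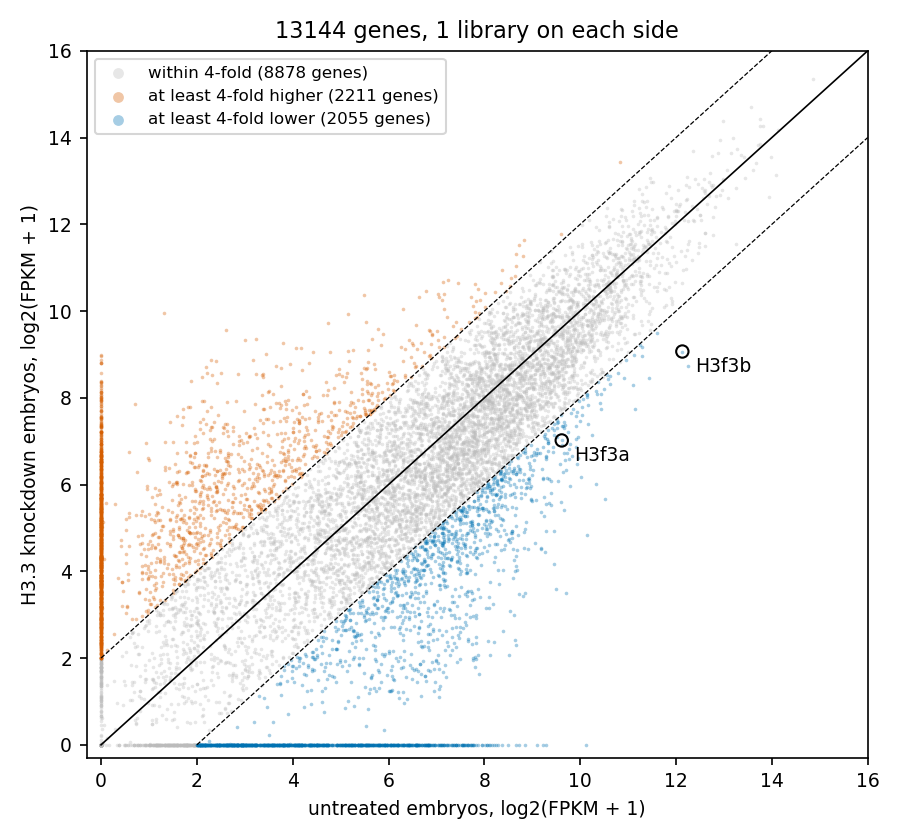
Level of each of 13144 genes in the untreated library (x axis) and in the H3.3 knockdown library (y axis), both as log2(FPKM + 1). The solid line marks equal levels and the dashed lines a 4-fold difference; 2211 genes lie above the band, 2055 below it, and both H3.3 genes lie below it.

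The share of genes past 4-fold was smaller at higher levels. Among 1991 genes with a pair mean of 1 to 10 FPKM it was 61.8%, among 4435 genes of 10 to 100 FPKM 50.1%, among 4065 genes of 100 to 1000 FPKM 19.5%, and among 787 genes of at least 1000 FPKM 2.92%. The same bands, still cut by the mean of the untreated and knockdown libraries, gave 49.9%, 43.6%, 19.6% and 6.35% for the luciferase against the untreated library. A further 1866 genes averaged under 1 FPKM over the pair and passed the filter only through the other libraries. There the knockdown could not reach 4-fold. The luciferase library did for 57.7%, a share that this choice of genes raises. Between 100 and 1000 FPKM more genes were lower (12.3%) than higher (7.16%), with a median of -0.38. From 1000 FPKM up, 10 genes were higher and 13 lower, with a median of 0.12. Few of the calls were thus at abundant transcripts.

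**Figure D2:**
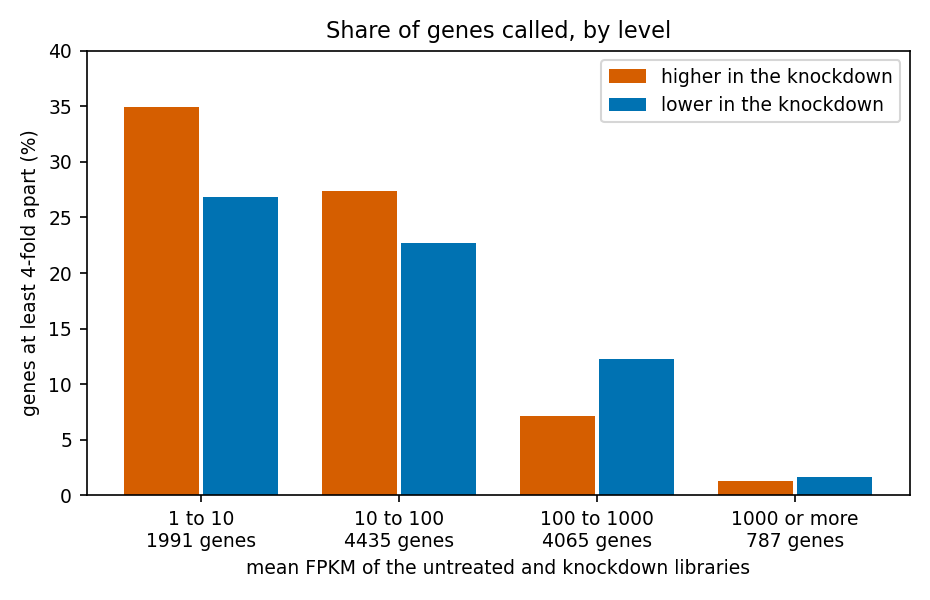
Share of genes at least 4-fold higher (orange) or lower (blue) in the knockdown library, by the mean FPKM of the untreated and knockdown libraries. Both bars shrink as the level rises, to 1.27% higher and 1.65% lower among the 787 genes of at least 1000 FPKM.

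The called genes were also looked at in the other libraries, and this describes sets that the untreated and knockdown values chose. The 999 higher genes above 0 in both had a median of 5.82 FPKM in untreated and 77.2 FPKM in the knockdown library, and of 54.6, 50.2 and 66.0 FPKM in the libraries labelled luciferase, H3.3 mRNA and H3.2 mRNA. For these genes the untreated library lay apart from the other 4. The 1137 lower genes had a median of 143 FPKM in untreated and 16.5 FPKM in the knockdown library, and of 37.6, 38.4 and 43.7 FPKM in the others. There the other libraries lay between the pair.

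Among the most abundant genes, those that were lower included several products of the oocyte. Zbed3, a gene of the subcortical maternal complex, had the largest difference, with 4895 FPKM in untreated and 427 FPKM in the knockdown library. Tagln2, an actin-binding protein gene, stood at 2273 and 212 FPKM. Bcl2l10, an anti-apoptotic BCL2 relative of oocytes, stood at 2781 and 348 FPKM. Slc39a4, a zinc importer, stood at 2182 and 311 FPKM. H1foo, the linker histone of oocytes, stood at 1925 and 351 FPKM. In the luciferase library Zbed3, Bcl2l10 and H1foo were lower still, at 43, 59.4 and 74.8 FPKM, Tagln2 was at 259 FPKM, and Slc39a4 at 1186 FPKM. The knockdown library was thus the lowest of these 3 libraries for Tagln2 and Slc39a4 but not for the 3 oocyte genes.

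The abundant genes that were higher were of mixed function. Guca1a, an activator of guanylate cyclase in photoreceptors, stood at 1821 FPKM in untreated and 11127 FPKM in the knockdown library. Dnajb14, a co-chaperone of the endoplasmic reticulum membrane, stood at 404 and 2542 FPKM. Ict1, a peptide release factor built into the mitochondrial ribosome, stood at 327 and 1965 FPKM. Wdr45, an autophagy gene, stood at 445 and 2477 FPKM, and Stmn3, a regulator of microtubules, at 373 and 1736 FPKM. For Guca1a, Ict1 and Dnajb14 the knockdown library was above the luciferase library as well, where they stood at 1611, 695 and 732 FPKM. Wdr45 was at 2321 FPKM there, near its knockdown level.

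At the ends of the ranking over genes above 0 in both libraries, the higher side was led by Nme3, a nucleoside diphosphate kinase gene, with 0.64 FPKM in untreated and 230.3 FPKM in the knockdown library. It stood at 211 FPKM in the luciferase library. Aqp11, an intracellular aquaporin, stood at 5.13 and 749.9 FPKM, with 139 FPKM in the luciferase library. Creb3, a transcription factor anchored in the endoplasmic reticulum, stood at 2.65 and 333 FPKM, with 111 FPKM in the luciferase library. Chrac1, a histone-fold subunit of the CHRAC remodelling complex, stood at 6.97 and 645 FPKM, with 155 FPKM in the luciferase library. Sars2, the mitochondrial seryl-tRNA synthetase gene, stood at 3.98 and 366 FPKM. The others of the top 12 were Fermt3, Sdr39u1, Rpusd1, Rtn2, Arhgdig, Efhd1 and Pkn3, between 214 and 654 FPKM in the knockdown library. The untreated library held at most 8.36 FPKM of each of the 12, and the luciferase library at least 30.5 FPKM.

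The lower side was led by Zfp82, a zinc finger gene, at 367 FPKM in untreated and 3.18 FPKM in the knockdown library, with 30.5 FPKM in the luciferase library. Vrk2, a kinase of the vaccinia-related family, stood at 235 and 2.1 FPKM. Rundc3a stood at 834 and 10.2 FPKM. Mgat1, the enzyme that starts complex N-glycans, stood at 278 and 3.17 FPKM. Tpp1, a lysosomal peptidase, stood at 217 and 2.87 FPKM. Bhlha15, a transcription factor of secretory cells, stood at 223 and 2.44 FPKM, and Laptm5, a lysosomal membrane protein gene of blood cells, at 131 and 1.13 FPKM. Bhlha15, Laptm5, Tmem25 and Art4 were listed at 0 in the luciferase library. Genes listed at 0 in the knockdown library and highest in the untreated one included Tstd1, Otos and Emid1, at 461, 359 and 312 FPKM.

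The chromatin genes around H3.3 differed in both directions. Of 19 H3 chaperones and deposition factors, 1 was at least 4-fold lower and none higher, against 15.6% and 16.8% of all genes; 11 were above and 8 below their untreated level, and the median was 0.13. Hira, the subunit that gives the HIRA complex its name, stood at 93.4 FPKM in untreated and 111 FPKM in the knockdown library. Its partner gene Ubn1 stood at 38.2 and 43.7 FPKM, whereas Cabin1, the third subunit, stood at 131 and 43.6 FPKM. Daxx, the H3.3 chaperone of heterochromatin, was the lower gene, at 306 and 66.5 FPKM, and stood at 81 FPKM in the luciferase library. Atrx, its remodelling partner, was low in both, at 2.44 and 2.76 FPKM. For the replication-coupled route, the large CAF-1 subunit gene Chaf1a stood at 62.4 and 208 FPKM, Chaf1b at 488 and 296 FPKM, and the H3-H4 carrier Asf1b at 386 and 686 FPKM.

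Other replacement variants were present at both ends of the scale. H2afz, which encodes H2A.Z, stood at 4109.8 FPKM in untreated and 5668 FPKM in the knockdown library. The centromeric H3 gene Cenpa was nearly level, at 723 and 749 FPKM. H2afx, whose product is phosphorylated at DNA breaks, was at least 4-fold higher, at 182 and 770.0 FPKM, with 385 FPKM in the luciferase library. Of 17 replication-dependent histone genes past the filter, 5 were higher and 9 lower (29.4% and 52.9%, against 16.8% and 15.6% of all genes). None was above 24.7 FPKM in the knockdown or 25.6 FPKM in the untreated library. At low levels such calls were common, with 61.8% of all genes of 1 to 10 FPKM and 50.1% of those of 10 to 100 FPKM past 4-fold. The 9 included Hist4h4, Hist1h3a and Hist2h2ac, and the 5 included Hist1h1c. Their median of -2.02 became 1.01 with a filter at 5 FPKM, so the group has no stable direction, and near-identical copies can trade reads.

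Writers and readers of repressive marks were called about as often as all genes. Of 28 Polycomb genes and H3K27 demethylases, 4 were higher and 4 lower (14.3% each, against 16.8% and 15.6% of all genes), with a median of -0.32, or -0.04 with upper-quartile scaling. Phc2, a Polycomb repressive complex 1 subunit, stood at 834 FPKM in untreated and 80.1 FPKM in the knockdown library, and Cbx2 at 272 and 61.9 FPKM. Cbx8 was listed at 0 in the untreated library and stood at 265 FPKM in the knockdown, with 24.4 FPKM in the luciferase library. Cbx7 stood at 5.17 and 62.3 FPKM, with 225 FPKM in the luciferase library. Core complex 2 genes differed less, with Ezh2 at 341 and 253 FPKM and Suz12 at 339 and 239 FPKM. Among 18 genes of H3K9 methylation, 3 were higher and 1 lower (16.7% and 5.56%). The methyltransferase gene Suv39h2 stood at 8.5 and 70.9 FPKM, while Ehmt2 stood at 417 and 138 FPKM. Setdb2 was the lower one, at 54.9 and 2.19 FPKM.

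In DNA methylation, 2 of 18 genes were higher and 2 lower (11.1% each). The de novo methyltransferase gene Dnmt3b stood at 1.84 FPKM in untreated and 25.8 FPKM in the knockdown library, and at 68.6 FPKM in the luciferase library. The oocyte dioxygenase gene Tet3 stood at 20.1 and 3.06 FPKM, with 3.38 FPKM in the luciferase library. Dnmt1, the maintenance enzyme, differed little, at 90.9 and 74.4 FPKM. Among 32 chromatin remodelling genes, 5 were higher and 5 lower (15.6% each, against 16.8% and 15.6% of all genes), with a median of 0.19. The remodelling ATPase genes Smarca4, Chd4 and Ino80 were below their untreated level, at 165, 128 and 25.6 FPKM against 478, 333 and 161 FPKM. Smarcb1, a core BAF subunit, was at least 4-fold higher, at 225 and 1204 FPKM. Of 30 acetylation and deacetylation genes, 2 were higher and 6 lower (6.67% and 20%, against 16.8% and 15.6% of all genes), among them Sirt5, Hdac4 and Hdac8, listed at 0 in the knockdown, and Myst4 at 77.7 and 2.46 FPKM. The median of that list, -0.71, was -0.36 with upper-quartile scaling.

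Genes of the cell surface and of the first epithelium were mostly below their untreated level. Of 26 trophectoderm and epithelium genes past the filter, none was at least 4-fold higher and 9 were lower, against 16.8% and 15.6% of all genes; 21 were below their untreated level, with a median of -1.18. The keratin pair of this epithelium was low: Krt8 was listed at 0 in the knockdown, with 184 FPKM in untreated and 836 FPKM in luciferase embryos, and Krt18 stood at 290.4 and 48.7 FPKM, with 435 FPKM in the luciferase library. Pkp2, a plakophilin of desmosomes, stood at 226 and 2.93 FPKM. At tight junctions, Tjp1 stood at 93 and 15.6 FPKM and the claudin gene Cldn6 at 864 and 95.9 FPKM. Cdh1, the E-cadherin of compaction, stood at 65.8 and 12.5 FPKM, with 311 FPKM in the luciferase library. Atp1b1, a subunit of the sodium pump, stood at 295 and 40.6 FPKM.

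The transcription factors of this epithelium lay on both sides. Tead4, the factor that sets trophectoderm apart, stood at 645 FPKM in untreated and 207 FPKM in the knockdown library, and its coactivator Yap1 at 250.3 and 260.4 FPKM. Gata3 was low in both, at 3.38 and 5.98 FPKM. Elf3, an epithelial ETS factor, lay the other way, at 22.9 and 91.6 FPKM, with 582 FPKM in the luciferase library. Cdx2, Eomes and Elf5 were listed at 0 in the 5 libraries. Against the luciferase library the list had a median of -1.55 in the knockdown, and the luciferase library itself had a median of -0.14 against the untreated one. With no filter on level the median against the untreated library was -0.61.

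Genes of the basement membrane and of primitive endoderm lay mostly below their untreated level as well, with 2 of 16 at least 4-fold higher and 7 lower (12.5% and 43.8%, against 16.8% and 15.6% of all genes) and a median of -1.30. The median was -0.62 with a pseudocount of 10 and -3.28 for the 8 members of at least 50 FPKM. Sparc, a collagen-binding matrix glycoprotein, stood at 719 FPKM in untreated and 11.1 FPKM in the knockdown library. Lamb1, a laminin chain, stood at 206 and 20.8 FPKM, with 477 FPKM in the luciferase library. Nid1, which links laminin to collagen IV, stood at 91 and 7.41 FPKM. Serpinh1, the collagen chaperone, stood at 183 and 15.2 FPKM, with 21.4 FPKM in the luciferase library. The endocytic adaptor Dab2 stood at 140.5 and 13.2 FPKM. The regulators Gata4 and Gata6 stood at 86.4 and 73.5 FPKM and at 47 and 51.4 FPKM. Without a filter this median was 0.00, because 7 of the 23 members were not past it, among them Sox17 and Foxa2, listed at 0 in the 5 libraries. In the luciferase against the untreated library the list's median was 1.49, with 7 of 16 genes higher and 3 lower. The knockdown against the luciferase library had a median of -3.09.

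Membrane transporters also lay mostly below their untreated level. Of 26 amino acid and nutrient transporters, 1 was at least 4-fold higher and 10 were lower (3.85% and 38.5%, against 16.8% and 15.6% of all genes), 19 were below their untreated level, and the median was -1.60, or -0.95 with a pseudocount of 10. Slc3a2, the heavy chain shared by several amino acid exchangers, was the most abundant, at 4479.9 FPKM in untreated and 1596 FPKM in the knockdown library. Its light chain Slc7a5, an exchanger of large neutral amino acids, stood at 70.9 and 9.79 FPKM. The glutamine and serine exchangers Slc1a5 and Slc1a4 stood at 335 and 72.6 FPKM and at 174 and 21.2 FPKM. Slc38a1, a sodium-coupled glutamine carrier, stood at 53.9 and 4.94 FPKM, and the cationic amino acid transporter Slc7a3 at 115 FPKM and listed at 0. Slc1a4 and Slc1a5 stood at 26.1 and 47.3 FPKM in the luciferase library, near the knockdown, while Slc38a1 and Slc7a5 stood between the pair, at 22 and 38.7 FPKM. Slc6a9, the glycine transporter that early embryos use to control volume, stood at 120.0 and 36.4 FPKM. The list's median was 0.89 in the luciferase against the untreated library and -1.70 in the knockdown against the luciferase library.

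**Figure D3:**
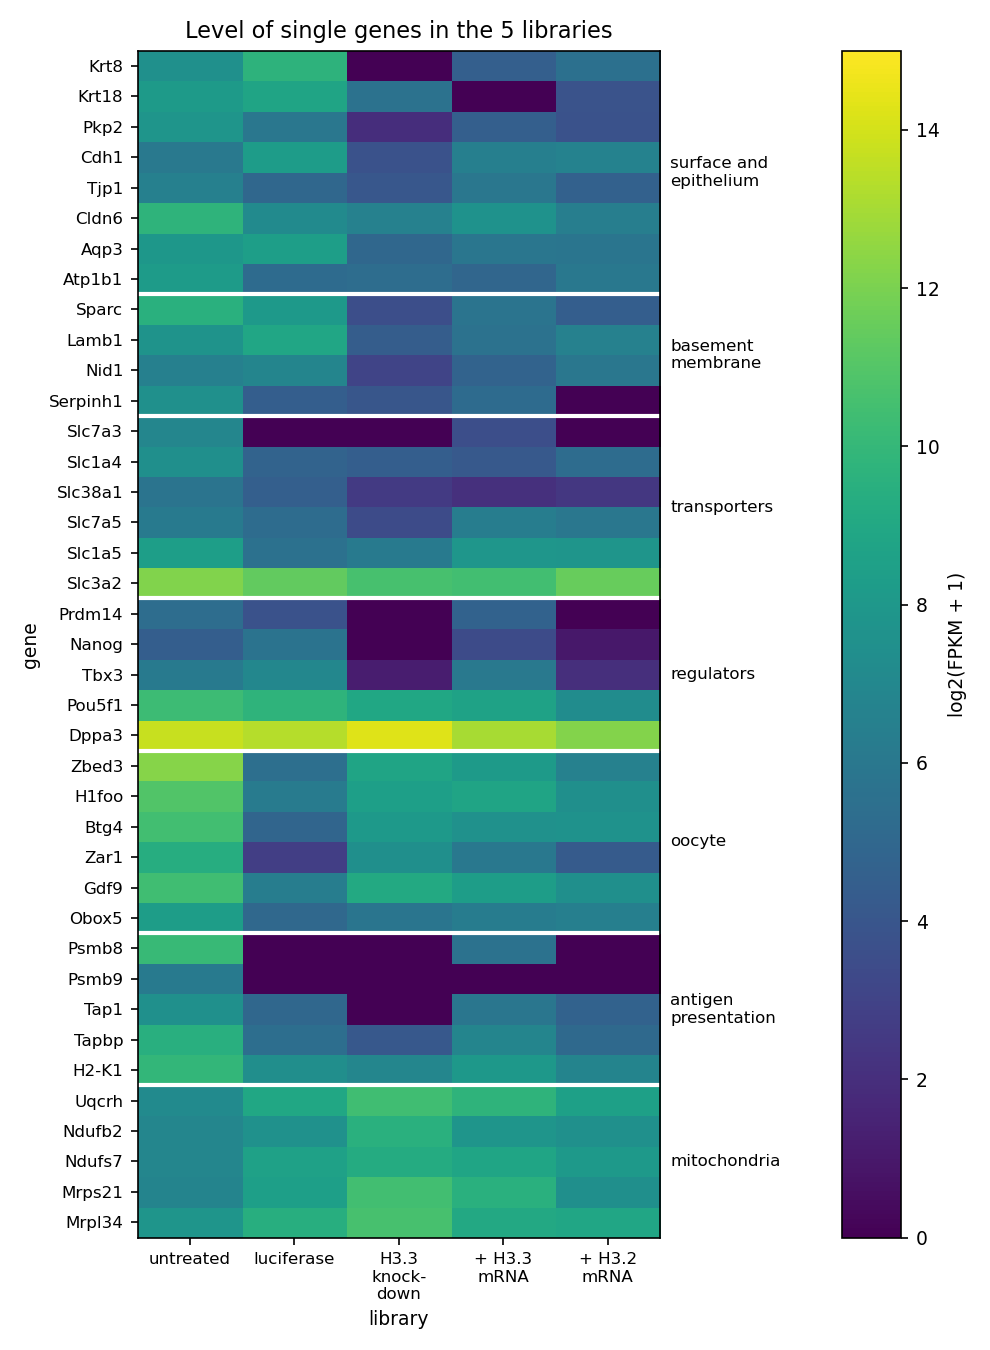
Level, as log2(FPKM + 1) by colour, of 39 genes (y axis) in the 5 libraries (x axis), 1 library a column. Most of these genes are named in the text, and they were chosen with their values known. Surface, basement membrane and transporter genes are darker in the knockdown than in the untreated column, mitochondrial genes are brighter, and oocyte genes are brightest in the untreated column.

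Regulators of pluripotency were called lower about as often as all genes. Of 27 genes, none was at least 4-fold higher and 4 were lower (14.8%, against 15.6% of all genes), namely Prdm14, Tbx3, Nanog and Lin28a, with a median of -0.37 over the list. Prdm14, a zinc finger factor of naive pluripotency, stood at 40.3 FPKM in the untreated library, and Nanog, a core homeobox factor, at 21.8 FPKM, and the knockdown library lists both at 0. Lin28a, which blocks let-7 maturation, stood at 96.1 and 12.8 FPKM. Pou5f1, which encodes OCT4, stood at 1249.7 and 479 FPKM, with 849 FPKM in the luciferase library. Sox15 stood at 1532 and 3189 FPKM, Sall4 at 129.8 and 159 FPKM, and Dppa3, the maternal protector of methylation and the most abundant of the list, at 13794 and 19535 FPKM. Sox2 was listed at 0 in each library but the untreated one and was not past the filter. With the filter at 50 FPKM the list's median was 0.29, so it has no direction that holds at every level.

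In growth factor signalling, 3 of 29 genes of the FGF, BMP and Nodal pathways were higher and 6 lower (10.3% and 20.7%, against 16.8% and 15.6% of all genes), with a median of 0.00. Nodal, a TGF-beta family ligand, stood at 35.2 FPKM in untreated embryos and was listed at 0 in the knockdown and luciferase libraries. The receptor gene Tgfbr1 stood at 36.5 FPKM and the inhibitory SMAD gene Smad7 at 27.2 FPKM in the untreated library, and the knockdown library lists both at 0. Id3, a BMP target, stood at 978 and 87.8 FPKM, with 1576 FPKM in the luciferase library. Fgf4, the ligand made by early embryonic cells, lay the other way, at 147 and 242 FPKM, and Bmpr1a, a BMP receptor, stood at 11.2 and 72 FPKM.

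Genes expressed in the oocyte had medians below 0 in each of 4 lists, and so did the luciferase library against the untreated one. The zona pellucida and oocyte-secreted genes had 3 higher and 7 lower of 24 (12.5% and 29.2%), with a median of -1.43. The subcortical maternal complex and NLRP genes had none higher and 4 lower of 17 (23.5%), with a median of -1.40. Genes of maternal mRNA storage and meiotic arrest had 1 higher and 9 lower of 30 (3.33% and 30%), with a median of -1.22. The Obox and Oog families had none higher and 1 lower of 9 (11.1%), with a median of -1.35. Of all genes, 16.8% were higher and 15.6% lower. In the luciferase library the same medians against the untreated one were -3.39, -2.47, -1.08 and -3.27. Set against the luciferase library, the knockdown had medians of 1.43, 1.30, 0.00 and 2.33. The knockdown library therefore lay between the controls for 3 of the 4 lists.

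Single oocyte genes differed in their order over the 3 libraries. Of those given here, Gdf9, Zar1, Btg4, Pan3 and Dcp1a were chosen after their values were seen. Gdf9, the growth factor by which oocytes act on cumulus cells, stood at 1332 FPKM in the untreated, 550.2 FPKM in the knockdown and 81.2 FPKM in the luciferase library. Zar1, which the transition from egg to embryo needs, stood at 639, 173 and 5.76 FPKM. Btg4, an adaptor for the removal of maternal mRNA, stood at 1389.9, 271 and 29.2 FPKM. Obox5 stood at 323, 56.1 and 32.6 FPKM. Astl, the oocyte protease that modifies the zona, was lowest in the knockdown, at 389, 18 and 35.2 FPKM. Figla, a transcription factor of oocytes, lay the other way, at 27.8 FPKM in the knockdown and listed at 0 in the others. Of the mRNA decay genes in these lists, the uridylyl transferase Zcchc6 stood at 173, 4.78 and 62 FPKM, the deadenylase subunit Pan3 at 109, 10.2 and 35.4 FPKM, and the decapping gene Dcp1a at 153, 16.7 and 82.6 FPKM. The other uridylyl transferase, Zcchc11, was listed at 0 in the untreated library and stood at 17 and 28.5 FPKM in the knockdown and luciferase libraries.

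Genes of genome activation at the 2-cell stage were mixed, with 5 of 17 higher, 3 lower and a median of 0.59. These are 29.4% and 17.6%, against 16.8% and 15.6% of all genes. The luciferase library had a like median of 0.64 against the untreated one. The knockdown median was 0.00 with no filter, 0.50 over genes above 0 in both and 0.49 with quantile normalization. Zfp352 stood at 396 FPKM in untreated and 15 FPKM in the knockdown library, with 1.37 FPKM in the luciferase library. Tdpoz4 stood at 5.24 and 101 FPKM and Tdpoz1 at 1.19 and 22.6 FPKM. Tdpoz2 was listed at 0 in the untreated library, with 93.1 FPKM in the knockdown and 79.2 FPKM in the luciferase library. These genes belong to families with near-identical copies, so the split of reads among them is uncertain. Zscan4d stood at 3.75 and 0.06 FPKM, and the 5 other Zscan4 genes listed were under the filter.

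Antigen presentation and interferon genes had a median of -2.16, the lowest of the 52 lists with a member past the filter after that of the H3.3 genes themselves. None of 21 was higher and 11 were lower (52.4%, against 15.6% of all genes). Psmb8 and Psmb9, catalytic subunits of the immunoproteasome, stood at 1107 and 71.8 FPKM in untreated embryos and were listed at 0 in knockdown embryos. Tap1, a chain of the peptide pump that supplies class I molecules, stood at 186 FPKM and was listed at 0 in the knockdown. Tapbp, the loading factor, stood at 696 and 16.8 FPKM, and the class I gene H2-K1 at 964 and 115 FPKM. Their regulators Irf1 and Irf9 stood at 411 and 21.3 FPKM and at 462 and 30.7 FPKM. B2m, the class I light chain, stood at 1851 and 1213 FPKM. In the luciferase library 15 of the 21 were lower than in the untreated one, where 13.4% of all genes were. Psmb8 and Psmb9 were also listed at 0 in the luciferase library, and the list's median there was -2.48. With no filter the knockdown median was -0.93, since 9 of the 30 members were not past the filter.

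Markers of cells that could accompany an embryo also differed between the pair. Of 23 cumulus cell markers 11 passed the filter, with 2 higher and 4 lower (18.2% and 36.4%, against 16.8% and 15.6% of all genes). The summed level of the 23 was 565 FPKM in untreated and 1078 FPKM in the knockdown library. Tnfaip6, Npr2 and Vcan, which cumulus cells express around ovulation, stood at 185, 168 and 62 FPKM in untreated embryos against 0, 0 and 2.05 FPKM in the knockdown. Amhr2, a receptor of granulosa cells, lay the other way, at 142 and 1056 FPKM, and made up most of the knockdown sum. The defining granulosa gene Foxl2 was listed at 0 in both, and so was Star. Of 24 fibroblast markers 7 were past the filter, with 1 higher and 1 lower (14.3% each). Vim was the lower one, at 68.7 FPKM in untreated embryos and listed at 0 in knockdown embryos, and Fn1 the higher one, at 0.82 and 16.5 FPKM. Their part in the differences of the oocyte and antigen presentation genes was not tested.

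The chaperones of the endoplasmic reticulum (ER), where surface and secreted proteins fold, had lower levels among their abundant members. A group of ER genes is known to carry the ER stress response element in the promoter, a motif read by ATF6 with NF-Y and by XBP1, made of CCAAT, any 9 bases and CCACG. The 250 bases before the start site were searched on both strands in the promoters of 14803 genes, from RefSeq on GRCm38.p6, and 0.155% of the genes held it. Among the listed ER genes, 23 had a promoter there, and 9 of those held it. A match is a description of these letters and not a site in use. They are shown 5′ to 3′ along the gene, with the 19 bases of the match in capitals and 20 bases on each side, because 6 of the 9 lay well below their untreated level and 3 did not.
Hspa5: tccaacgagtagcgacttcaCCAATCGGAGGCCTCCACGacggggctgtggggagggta
Hsp90b1: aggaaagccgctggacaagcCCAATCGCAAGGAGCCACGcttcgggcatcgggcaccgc
Calr: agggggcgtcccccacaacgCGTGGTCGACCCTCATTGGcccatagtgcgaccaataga
Canx: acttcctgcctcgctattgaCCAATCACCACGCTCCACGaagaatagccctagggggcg
Pdia6: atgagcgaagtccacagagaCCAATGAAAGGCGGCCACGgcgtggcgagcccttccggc
Dnajc3: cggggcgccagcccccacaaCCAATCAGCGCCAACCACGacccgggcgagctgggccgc
Creld2: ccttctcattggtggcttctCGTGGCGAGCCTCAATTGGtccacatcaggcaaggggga
Syvn1: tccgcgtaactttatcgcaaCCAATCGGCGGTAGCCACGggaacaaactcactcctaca
Derl3: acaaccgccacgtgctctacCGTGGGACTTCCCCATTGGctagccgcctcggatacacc

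The stretches lie at chr2:34772005-34772063 (Hspa5, + strand), chr10:86705618-86705676 (Hsp90b1, - strand), chr8:84847055-84847113 (Calr, - strand), chr11:50325780-50325838 (Canx, - strand), chr12:17266471-17266529 (Pdia6, + strand), chr14:118937807-118937865 (Dnajc3, + strand), chr15:88819500-88819558 (Creld2, + strand), chr19:6046512-6046570 (Syvn1, + strand) and chr10:75893222-75893280 (Derl3, + strand), in each case upstream of the annotated start and outside the transcript. In Calr, Creld2 and Derl3 the match is on the opposite strand, so the capitals open with CGTGG and close with ATTGG. The end of the match nearest the gene lies between 26 bases (Syvn1) and 194 bases (Hsp90b1) before the start site.

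Of these 9 genes, 6 had differences under -1.23, the lower quartile of all genes above 0 in both. Hspa5, which encodes the ER chaperone BiP, stood at 3786 FPKM in untreated and 1251 FPKM in the knockdown library, with 2284, 2500.3 and 3318 FPKM in the libraries labelled luciferase, H3.3 mRNA and H3.2 mRNA. Hsp90b1, the ER form of HSP90, stood at 1187 and 331 FPKM, with 839, 533 and 929.5 FPKM in the same 3 libraries. Calr and Canx, the lectin chaperones of new glycoproteins, stood at 1493 and 568 FPKM and at 615 and 141 FPKM. For Canx the other 3 libraries stood at 514, 467 and 605 FPKM, close to the untreated level. Pdia6, a disulfide isomerase, stood at 1034 and 70.7 FPKM, a 14.6-fold difference, but the library labelled H3.3 mRNA was lower still, at 51.2 FPKM. Dnajc3, a BiP co-chaperone, stood at 212 and 69.5 FPKM. The knockdown library was the lowest of the 5 for Hspa5, Hsp90b1, Calr, Canx and Dnajc3.

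The other 3 genes with the motif did not share this. Creld2, a secreted ER stress protein, stood at 1109 and 1148 FPKM. Syvn1, a ubiquitin ligase that clears misfolded proteins, stood at 23.9 FPKM in untreated and 89 FPKM in the knockdown library, with 101 FPKM in the luciferase library. Derl3, a channel component of the same route, stood at 13.2 and 85.8 FPKM and was listed at 0 in the luciferase library. The 9 genes had a median difference of -1.60, and the 14 ER genes searched without a match had one of 0.27, with 6 of them below their untreated level. Among those without a match were Os9, a lectin of ER clearance, at 9.48 and 354 FPKM, and Sil1, an exchange factor of BiP, at 224 and 456 FPKM. Hyou1, an ER list gene not among the 9, stood at 80.5 and 7.93 FPKM. Genes with and without a match were not compared at like levels, and the list's members of at least 50 FPKM had a median of -1.12. Whether the motif or the level goes with the difference was not tested.

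Over the whole ER list the difference depended on level. Past 4-fold, 4 of 30 genes were higher and 4 lower, near the shares of all genes, and the median was -0.28. Its 25 members that averaged 50 FPKM or more had a median of -1.12. The sensors differed in both directions: Atf6 stood at 20.9 and 6.28 FPKM, Xbp1 at 73.1 and 30.9 FPKM, and the kinase gene Ern1, which splices Xbp1 mRNA, at 7.06 and 54.2 FPKM. P4hb, the most abundant disulfide isomerase, stood at 3088 and 1417 FPKM. In the integrated stress response, Ddit3, which encodes CHOP, stood at 2494 and 497 FPKM with 262 FPKM in the luciferase library, Atf4 at 2530.0 and 2943 FPKM, and Trib3 at 65.5 and 364 FPKM.

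**Figure D4:**
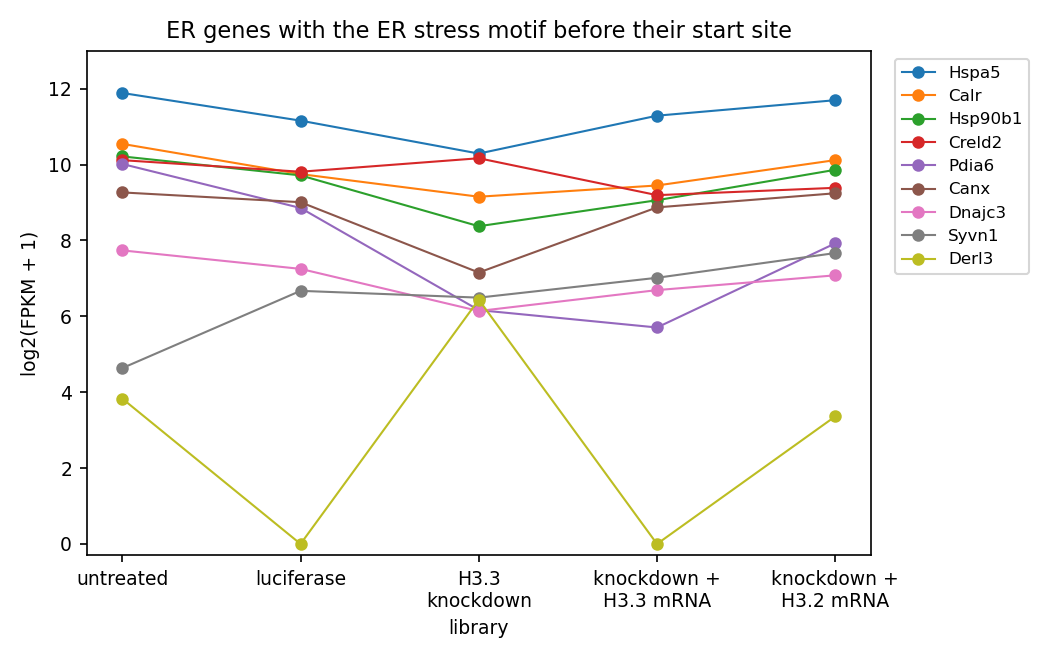
Levels, as log2(FPKM + 1) on the y axis, of the 9 ER genes with the ER stress motif in each of the 5 libraries (x axis); a line joins the values of 1 gene and marks no order. The knockdown library is the lowest for Hspa5, Hsp90b1, Calr, Canx and Dnajc3, whereas Derl3 is highest there.

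Chaperones of the cytosol differed little, and mostly in the same direction. Of 38 heat shock and cytosolic chaperone genes, 1 was at least 4-fold higher and 2 lower, fewer than the shares of all genes, yet 31 were below their untreated level and 5 above, where 55.1% of all genes above 0 in both were below. The median was -0.86. Hsp90ab1, the constitutive HSP90, stood at 15635 FPKM in untreated and 6335 FPKM in the knockdown library, with 33959 FPKM in the luciferase library. Hsp90aa1, its inducible form, stood at 3544 and 1119 FPKM. Hspa8, the constitutive HSP70, stood at 5653 and 2584 FPKM. Of the chaperonin that folds actin and tubulin, Cct8, Cct4 and Cct5 stood at 1640.0, 1971 and 2848 FPKM against 4020.0, 4519.6 and 5685 FPKM, whereas Cct7 stood at 2351 against 1221 FPKM. Hsf1, the heat shock transcription factor, stood at 432 and 135 FPKM. The median was -0.50 with upper-quartile scaling, which moves the median of all genes above 0 in both from -0.20 to 0.14.

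The cytoskeleton list, which these chaperones serve, had a median of -0.84, with 1 of 37 genes higher and 4 lower (2.7% and 10.8%, against 16.8% and 15.6% of all genes). The median was -0.49 with upper-quartile scaling and -0.53 for members of at least 50 FPKM. Tpm1, a tropomyosin, stood at 1282 FPKM in untreated and 63.3 FPKM in the knockdown library, with 741 FPKM in the luciferase library. The actin crosslinker Actn4 stood at 1243 and 373 FPKM. Actg1, a cytoplasmic actin, stood at 2186 and 910.1 FPKM, while the actin regulators Cfl1 and Pfn1 stood at 4856 and 4345 FPKM and at 4073 and 5159 FPKM. Tpm4 lay the other way, at 36.2 and 238 FPKM, near its 247 FPKM in the luciferase library.

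Ribosomal protein and respiratory chain genes formed the block on the higher side, with small differences over many members. Of 85 cytosolic ribosomal protein genes, 69 were above and 16 below their untreated level, with a median of 0.62, and 1 was past 4-fold in each direction. Of 76 mitochondrial ribosomal protein genes, 57 were above, 7 were at least 4-fold higher (9.21%) and none lower, with a median of 0.70. Of 78 respiratory chain and ATP synthase genes, 62 were above, 5 were at least 4-fold higher (6.41%) and none lower, with a median of 0.73. These shares past 4-fold are below the 16.8% of all genes that were higher. Among all genes above 0 in both, 44.9% were above. By level, 39.2% of genes with a pair mean of 100 to 1000 FPKM were above, and 57.1% of those of at least 1000 FPKM. In the luciferase library the medians against the untreated one were 0.12, -0.36 and -0.36, and the knockdown against the luciferase library had 0.40, 1.01 and 0.88.

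Single members differed by more. Atp5s, listed at 0 in the untreated library, stood at 112 FPKM in the knockdown library. Mrps21, a small-subunit protein of the mitochondrial ribosome, stood at 109 FPKM in untreated and 1415 FPKM in the knockdown library, with 349.5 FPKM in the luciferase library. Mrpl34 stood at 223 and 1578 FPKM, with 679.9 FPKM in the luciferase library, and Mrpl20 at 1518 and 5327 FPKM, with 2069 FPKM. Ndufs7, a core subunit of complex I, stood at 117 and 601 FPKM, with 384 FPKM in the luciferase library. Cox6a1, of cytochrome oxidase, stood at 639 and 2071 FPKM. Sdha, the flavoprotein of complex II and an enzyme of the citrate cycle, lay the other way, at 819 and 217 FPKM. Among ribosomal proteins of the cytosol, Rpl32 stood at 8101 and 21219.7 FPKM and Rplp2 at 2840.1 and 8038 FPKM. Rpl10l and Rpl3l, the genes past 4-fold, are tissue-specific relatives, at 53.2 and 262 FPKM and at 50.3 FPKM and listed at 0.

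These are short transcripts, and the difference was related to length. Over 6143 genes with a pair mean of at least 50 FPKM, Spearman's rho of transcript length with the difference was -0.24 across genes, which is a description. The median length was 1059 bases for cytosolic ribosomal proteins, 1186 bases for the respiratory chain and 1806 bases for mitochondrial ribosomal proteins. A running median of the difference over length was then removed, taken over all 12993 genes past the filter with a length, low genes included. The medians were then 0.41, 0.51 and 0.52 in place of 0.62, 0.73 and 0.70. That trend is not the one over the 6143 genes, so these medians do not show how much of the difference goes with length. The part of RNA quality or library preparation in the trend was not tested.

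The enzymes that feed the respiratory chain did not share its direction. Of 42 glycolysis and citrate cycle genes, 3 were higher and 2 lower (7.14% and 4.76%, against 16.8% and 15.6% of all genes). Their median was -0.43, near that of the reference genes (-0.57), and -0.08 with upper-quartile scaling. Cs, the citrate synthase, stood at 1323 FPKM in untreated and 545 FPKM in the knockdown library, and Idh3g, a citrate cycle dehydrogenase subunit, at 2209.7 and 960.4 FPKM. Idh2, the mitochondrial NADP-dependent enzyme, was higher, at 33.9 and 378 FPKM, with 1186 FPKM in the luciferase library. Hk2, a hexokinase, stood at 22.4 FPKM in untreated embryos and was listed at 0 in knockdown embryos. Slc2a1, the glucose transporter GLUT1, stood at 102 and 34 FPKM.

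Factors that build and use ribosomes had medians below 0, near those of the reference genes (-0.57) and of all genes of 100 to 1000 FPKM (-0.38). Of 45 nucleolar ribosome biogenesis genes, none was at least 4-fold higher and 3 were lower (6.67%), against 16.8% and 15.6% of all genes. Of the 45, 30 were below their untreated level, and the median was -0.46. Polr1a, the largest RNA polymerase I subunit, stood at 92.8 FPKM in untreated and 9.52 FPKM in the knockdown library, with 130.1 FPKM in the luciferase library. Nop56, a box C/D snoRNP protein, stood at 2830.2 and 829.6 FPKM, and Npm1, nucleophosmin, at 17305 and 9041 FPKM. The polymerase subunit Polr1d and the box H/ACA protein Nhp2 lay above, at 3703 and 7537 FPKM and at 1475 and 4692 FPKM. The translation factor list, which also holds Argonaute genes under their older Eif2c symbols, had none of 64 higher and 5 lower (7.81%). Its median was -0.40. Eef2, the elongation factor, stood at 4754 and 2006 FPKM, whereas Eef1a1 stood at 12950.0 and 10966 FPKM. With upper-quartile scaling the 2 medians were -0.11 and -0.07.

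Core transcription and splicing had few genes past 4-fold, where 16.8% of all genes were higher and 15.6% lower. Their genes are mostly abundant: 43 of 46 spliceosome and 45 of 50 polymerase genes averaged at least 50 FPKM. Past 4-fold were 19.5% of all genes with a pair mean of 100 to 1000 FPKM and 2.92% of those of at least 1000 FPKM. None of 46 spliceosome genes was past 4-fold in either direction, 22 were above and 24 below, and the median was -0.15, near that of all genes. Of 50 genes of RNA polymerase II and the general factors, 1 was higher and 3 lower (2% and 6%), with a median of -0.20. Polr2a, the largest subunit, was among the lower genes, at 109 FPKM in untreated and 22 FPKM in the knockdown library. The 39 proteasome genes had a median of 0.02, and the 2 lower ones were the immunoproteasome genes Psmb8 and Psmb9. The 49 mitosis genes had a median of -0.03, with 3 higher (6.12%) and none lower, and 46 of them averaged at least 50 FPKM. Cyclin B1 (Ccnb1) stood at 1611 and 1596 FPKM, and Plk1 at 722 and 711 FPKM.

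DNA replication genes had a median of -0.32, or 0.03 with upper-quartile scaling, with 7 of 54 higher and 5 lower (13% and 9.26%, against 16.8% and 15.6% of all genes). Mcm10, an initiation factor, stood at 742 FPKM in untreated and 66.5 FPKM in the knockdown library, and Pole2, a polymerase epsilon subunit, at 339 and 30.0 FPKM. Of the MCM helicase, Mcm4 and Mcm6 stood at 417 and 84.5 FPKM and at 1425 and 385 FPKM, whereas Mcm2 stood at 367 and 424 FPKM and Mcm7 at 696 and 463 FPKM. The G1/S genes Ccne1, Tk1 and E2f1 were higher, at 1213, 1339 and 189 FPKM against 239, 129 and 17.2 FPKM. In the luciferase library Ccne1 and Tk1 stood at 1140.2 and 2880.4 FPKM, also above the untreated library, and E2f1 at 60.9 FPKM. Rfc3, a clamp loader subunit, stood at 78.3 and 1055 FPKM, with 410.2 FPKM in the luciferase library.

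DNA repair genes had 6 of 53 higher and 9 lower (11.3% and 17%, against 16.8% and 15.6% of all genes), with a median of -0.65, near that of the reference genes (-0.57). The end-binding KU pair was low, with Xrcc6 at 178 and 5.53 FPKM and Xrcc5 at 55.4 FPKM and listed at 0, while Prkdc, the kinase that KU recruits, stood at 0.49 and 37.1 FPKM. Msh6, of mismatch repair, stood at 518 and 79.3 FPKM. In the p53 list, 1 of 25 genes was higher and 6 were lower (4% and 24%), with a median of -0.65. Trp53 itself stood at 787 and 471 FPKM, and its target Cdkn1a, a cell cycle inhibitor, at 2319.8 and 2266 FPKM. Gadd45a was listed at 0 in the knockdown, and its relative Gadd45b stood at 1567 and 316 FPKM, with 268 FPKM in the luciferase library. With upper-quartile scaling both medians were -0.30.

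The apoptosis list had 2 of 28 genes higher and 6 lower (7.14% and 21.4%, against 16.8% and 15.6% of all genes), with a median of -0.26. The pro-death genes Bik and Pmaip1 stood at 112 and 71.8 FPKM in untreated embryos and were listed at 0 in knockdown embryos, and the luciferase library held 5.25 and 4.02 FPKM. Casp9, the initiator caspase, stood at 48.6 FPKM and was listed at 0. The inhibitors Birc2 and Birc3 stood at 194 and 5.83 FPKM and at 196 and 19.8 FPKM. Bax, the pore former, stood at 485 and 1076 FPKM, above its 164 FPKM in the luciferase library. Bik, Pmaip1 and Casp9 thus stood on the same side as the inhibitors Birc2 and Birc3, and Bax on the other. Of the 28 genes, 17 were below, 7 above and 4 equal to their untreated level.

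**Figure D5:**
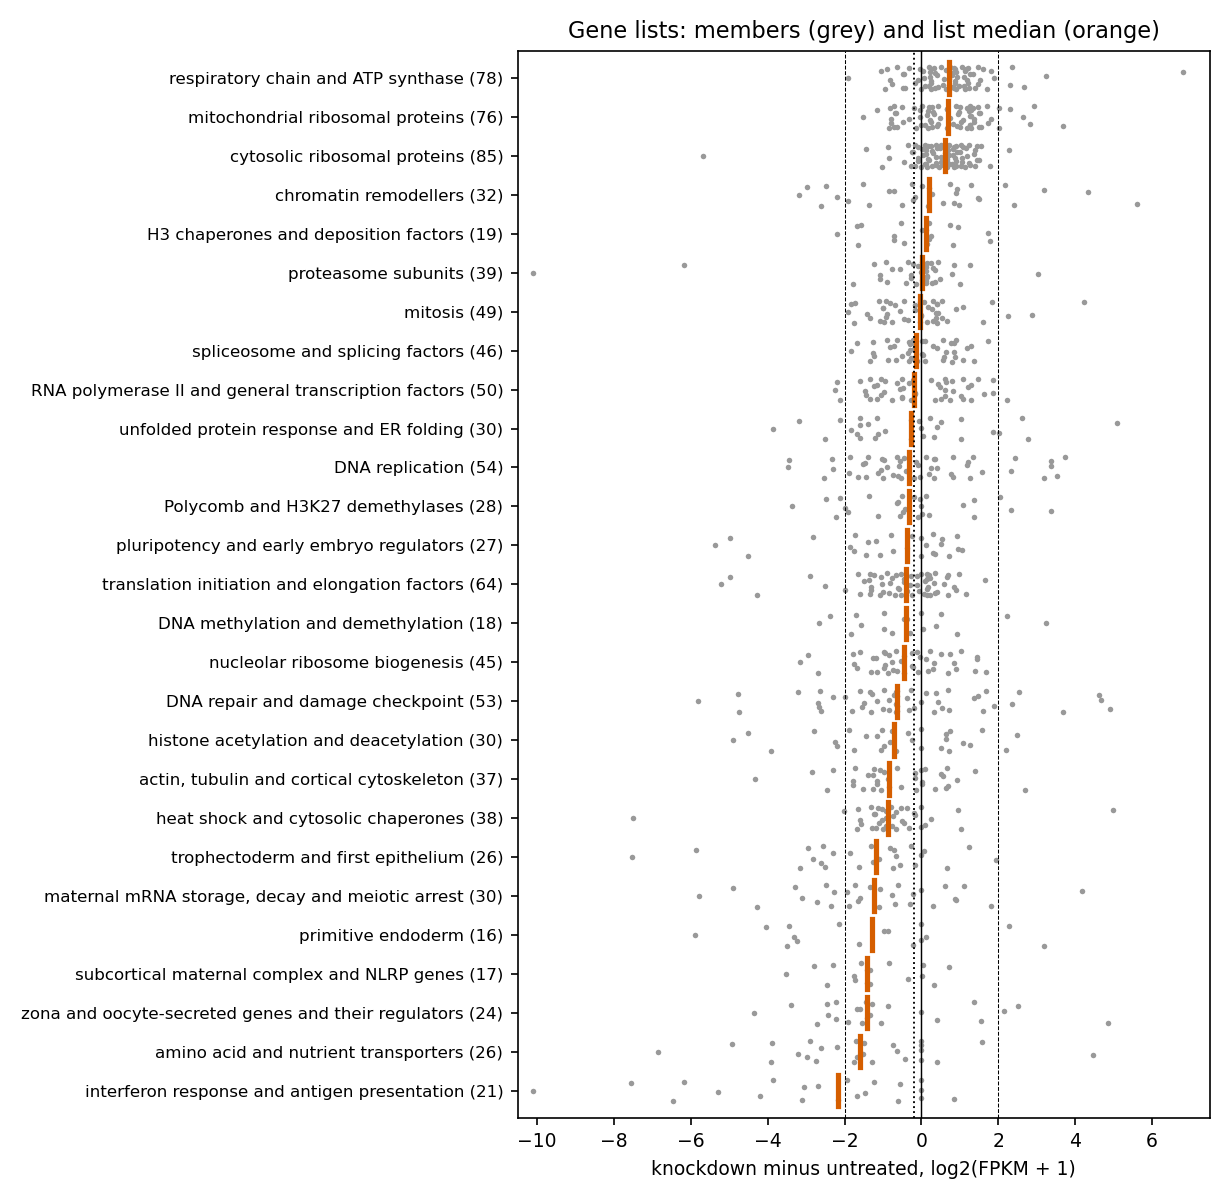
Difference between the knockdown and untreated libraries, on the log2(FPKM + 1) scale (x axis), for the members of 27 gene lists (y axis, members past the filter in brackets). Each grey point is a gene and the orange bar the list's median; the dotted line marks the median of genes above 0 in both libraries (-0.20) and the dashed lines 4-fold. Medians run from 0.73 for the respiratory chain to -2.16 for interferon and antigen presentation genes.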

How the data were processed

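Each of the 5 libraries has 1 deposited table with 1 FPKM value for each of 22026 gene symbols. The authors aligned single reads of 51 bases, from TruSeq libraries of total RNA per the labels, with TopHat and used Cufflinks to estimate FPKM, against mm9; the submitters' processing notes name these tools and the build without versions. FPKM depends on transcript length and library total, so abundant transcripts shift all others, and near-identical copies can trade reads. The depth of each library is unknown: values under 20 FPKM of 1096 genes were searched for steps worth 1 read, and none was found. No interval or detection limit that needs counts is therefore given.

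The comparison used log2(FPKM + 1), which understates differences of low genes, and 13144 genes that averaged 1 FPKM or more. With 1 library a group there is no test, no error and no p-value. The labels name no separate cultures or replicates. The arithmetic of the call at 4-fold was checked on simulated libraries with large planted changes and little noise. That check does not bear on how reliable the calls in these libraries are. Named genes are, clone names left out, the 12 highest and 12 lowest above 0 in both libraries, the 6 highest listed at 0 on the other side, the 6 highest and 6 lowest with a pair mean of at least 1000 FPKM, up to 4 members of each list with the largest difference, and the H3.3 genes. Some genes that this rule names are not reported here. Further genes in the text were chosen from the lists after their values were seen. The comparison, the 53 lists and the rules were chosen with earlier results of these data known, and support nothing beyond a description. Of 1805 listed names, 1762 matched a symbol, older symbols included, and 1495 distinct genes were past the filter. Mitochondrially encoded genes were not matched and are not analysed here. Transcript lengths are those of the longest GENCODE transcript of GRCm38, found for 98.9% of the genes. Promoters came from a RefSeq table of GRCm38.p6, matched by symbol, and their coordinates are not those of mm9. Alternatives were other pseudocounts, filters, rescalings and folds, and the length trend removed. Python 3.11.15, pandas 2.3.3, numpy 2.4.6, scipy 1.17.1 and matplotlib 3.10.9 were used.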

Additional observations from a re-analysis of the deposited data

How the results depend on the processing

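The count of higher genes, 2211 as reported, was 1038 with a pseudocount of 10, 675 with a filter at 50 FPKM, 999 over genes above 0 in both libraries and 3360 at 2-fold. The count of lower genes, 2055 as reported, was 1119, 717, 1137 and 3835 under the same settings, and 1132 at 8-fold; fewer genes are tested with the filters. The other settings for these counts, 15 in all, stayed within 1.5 times. The share of higher among called genes was 51.8% as reported and 59.5% with upper-quartile scaling, which gave 2469 higher and 1683 lower genes. Upper-quartile scaling moved the median of genes above 0 in both libraries from -0.20 to 0.14, and median-of-ratios scaling moved it to -0.01. The median of the replication-dependent histone genes, -2.02 as reported, was 1.01 with a filter at 5 FPKM and 3.04 over genes above 0 in both, where fewer members were left. Of the other list medians under the alternatives, 20 came to lie under 0.5 in size, 20 came to lie at or over it, and 476 kept their side of it. Of the values of named genes, 104 no longer reached 4-fold, 12 came to reach it and 1324 kept their side. No paired analysis was possible because each group is 1 library, and no library could be left out. Unknown depth leaves no limit for genes listed at 0.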
